A study of Coturnix japonica with 54 samples.

Results

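The genes described here encode the Rab, SNARE and synaptotagmin machinery of vesicle traffic and secretion in the pituitary gland of the male Japanese quail (Coturnix japonica). Members were taken by a rule on symbols: numbered Rab, VAMP, syntaxin, syntaxin-binding, SNAP and synaptotagmin genes, with a single named Rab gene left out by the rule. The set was chosen with earlier results of these data known. The rule gave 90 of the 16448 genes in the deposited table, carried by 235 of its 40282 transcripts, and all 90 are protein coding in the gene table of the quail assembly. All 54 birds were male and began at 16 h of light a day, and none was untreated. The day length was then lowered in 2 h steps to 8 h and raised again to 16 h, with 2 weeks at each step and 6 birds sampled at the end of each. The groups are, in order, 16La, 14La, 12La, 10La, 8L, 10Lv, 12Lv, 14Lv and 16Lv, where the number is the hours of light, a marks the autumn-like decline and v the spring-like increase. Each bird gave 1 library of polyadenylated pituitary RNA, read as cDNA on Oxford Nanopore flow cells with native barcodes. Because all birds followed this sequence until they were sampled, a later group also had more weeks in the experiment, and time and light history cannot be told apart.

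Endocrine cells of the pituitary store peptide hormones in dense-core granules and release them when calcium enters the cell. Rab proteins are small GTPases that mark membranes and recruit the effectors which move and tether vesicles. SNARE proteins of the VAMP, syntaxin and SNAP families then zip together to fuse the vesicle with its target membrane, syntaxin-binding proteins regulate their assembly, and synaptotagmins include the calcium sensors that trigger release. Levels here are whole-gland RNA, so fewer cells of a type and less RNA per cell cannot be told apart.

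All 90 members had at least 1 count, but most were rare. How reads were assigned to transcripts is not stated in the labels, and 1 read may add to more than 1 transcript of the same gene. The largest transcript count of each gene in each bird was therefore used. Summed over birds it came to 4217 counts for the members, and the highest count of any member in any bird was 23. A count of 0 made up 60.5% of the 4860 member values, against 71.9% over all genes. In all, 22 members had 10 counts or fewer over the 54 birds, 9 had 100 or more, and 33 were detected in 27 or more birds. The 50 Rab genes held 2805 counts, or 66.5% of the member counts. The 11 syntaxins held 9.68%, the 14 synaptotagmins 8.23%, the 5 SNAP genes 6.36%, the 6 syntaxin-binding genes 5.10% and the 4 VAMP genes 4.13%. These counts are not divided by transcript length, so their order is no order of RNA levels between genes. One SNAP member, SNAP91, is named here because its role differs from its family's name: it encodes a clathrin assembly protein and not a SNARE.

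Libraries differed in depth and kind. Totals of largest transcript counts ranged from 2812 to 77709 per bird with a median of 20420. They averaged 16340 ± 11280 (SD, n = 24) in the spring arm (10Lv to 16Lv), 20120 ± 3982 (SD, n = 6) at 8L and 31850 ± 16700 (SD, n = 24) in the autumn arm (16La to 10La). In 7 of the 9 photoperiods the lowest member share belonged to the bird with the highest bird number in the labels. The 9 highest-numbered birds had a member share of 0.133% ± 0.0699 (SD, n = 9), against 0.343% ± 0.0720 (SD, n = 45) in the other birds. They also had fewer genes detected, with a mean of 1799 against 5178. Their endocrine marker genes took a mean of 3.04% of counts against 6.05%, and the 2 genes with the most counts over all birds together took a mean of 57.5% against 28.8%. The labels name no batch, and the part of these differences in the results below was not tested beyond refits. Members were refitted without those birds, without libraries of under 2000 genes, and with the log2 total as a covariate. No member was called in these refits, and the share of all genes called in them is not given here.

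Markers of the labelled tissue were present. The 8 endocrine pituitary genes of 11 listed that are in the table all had counts and took 0.598% to 13.4% of the library, with a median of 5.49%. Leukocyte markers reached at most 0.0199% of a library and fibroblast markers 0.332%. Markers of the neural lobe and stalk (5 of 9 listed genes are in the table) had a median of 0.0062% and a highest value of 0.540%, in 12La replicate 5. The hormone genes of the neural lobe (AVP and OXT) and the 9 listed red blood cell genes are not in the table under the symbols searched.

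The members together took a mean share of the library between 0.267% and 0.353% in every photoperiod. On the declining side their share averaged 0.306% ± 0.0586 in 16La birds, 0.326% ± 0.103 in 14La birds, 0.313% ± 0.110 in 12La birds and 0.286% ± 0.131 in 10La birds (SD, 6 birds a group). In 8L birds it was 0.326% ± 0.110. On the rising side it was 0.269% ± 0.130 in 10Lv birds, 0.353% ± 0.126 in 12Lv birds, 0.327% ± 0.130 in 14Lv birds and 0.267% ± 0.0820 in 16Lv birds. The birds of every photoperiod overlapped those of every other, and the highest and lowest means differed by less than the SD within 7 of the 9 groups. Single birds ran from 0.0306% in 10Lv replicate 6, with 2 of 6542 counts (95% Clopper-Pearson interval 0.00370 to 0.110), to 0.477% in 14La replicate 1, with 86 of 18016 counts (0.382 to 0.589). Such intervals, here and for floors below, cover counting error only. Without the highest-numbered bird of each photoperiod the means were 0.317% ± 0.0593 at 16La, 0.369% ± 0.0328 at 8L and 0.282% ± 0.0824 at 16Lv. The highest was 0.396% ± 0.0771 at 12Lv (SD, 5 birds a group) and the lowest that at 16Lv. Among these birds the highest and lowest means differed by more than the SD within each of the 9 groups, which was at most 0.0848 (14La). The 16Lv mean includes replicate 1, at 0.142% with 4 of 2812 counts (95% interval 0.0388 to 0.364). The median of the same 5 birds was 0.312%. This gap between the extremes of 9 means was not tested and does not show a difference between photoperiods. Pooled over birds, the share was 0.342% in the spring arm (1342 of 392214 counts), 0.334% at 8L and 0.323% in the autumn arm (2472 of 764403 counts). Pooling weights each bird by its depth. The means over birds had the opposite order, with 0.304% ± 0.117 in the spring arm and 0.308% ± 0.0982 in the autumn arm (SD, n = 24 each). No test was made of a score over the members.

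**Figure D1:**
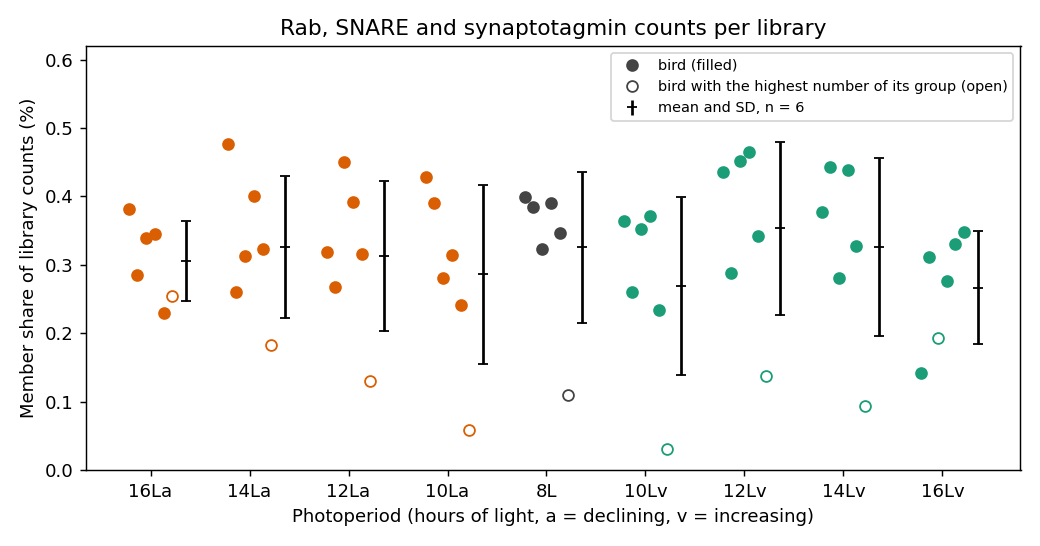
Share of library counts taken by the 90 members in each bird (points, percent) by photoperiod, with the mean and SD of 6 birds beside them; open points are the birds with the highest number of their photoperiod. The group means lie between 0.267% and 0.353%, and the open points hold the lowest share in 7 of the 9 photoperiods.

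More members were detected in deeper libraries. Spring birds had 29.1 ± 16.6 members with a count and autumn birds 41.96 ± 15.2 (SD, n = 24 each). When each library was reduced to the expected detection at 2812 counts, the smallest total, the numbers were 7.70 ± 2.78 in spring birds and 7.72 ± 2.33 in autumn birds (SD, n = 24 each). The arms thus had nearly the same mean at equal depth. At that depth the 9 highest-numbered birds had 3.55 ± 1.78 members and the other 45 birds 8.60 ± 1.65.

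**Figure D2:**
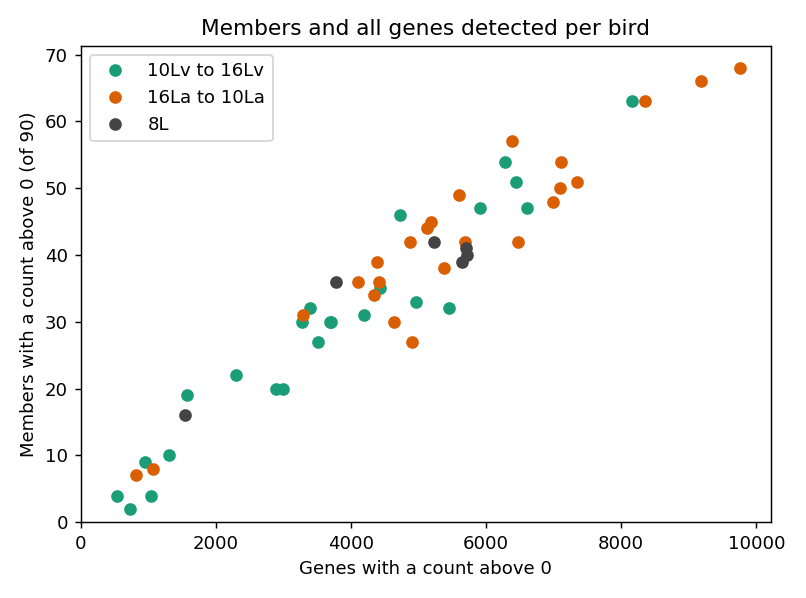
Members with a count above 0 (of 90) against all genes with a count above 0 in each of the 54 birds, coloured by arm. Spring birds (10Lv to 16Lv) sit lower on average on both axes than autumn birds (16La to 10La), and members follow all genes along 1 band.

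Family levels were summed as CPM, the counts per 1000000 of a bird's largest transcript counts, and spread widely between the birds of a photoperiod. The syntaxin-binding genes had their highest mean at 12Lv, 308 ± 230 CPM, against 140 ± 120 CPM at 12La (SD, n = 6 each). Their means at the other photoperiods lay between 109 and 188 CPM, and the birds at 12Lv overlapped all of them.

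**Figure D3:**
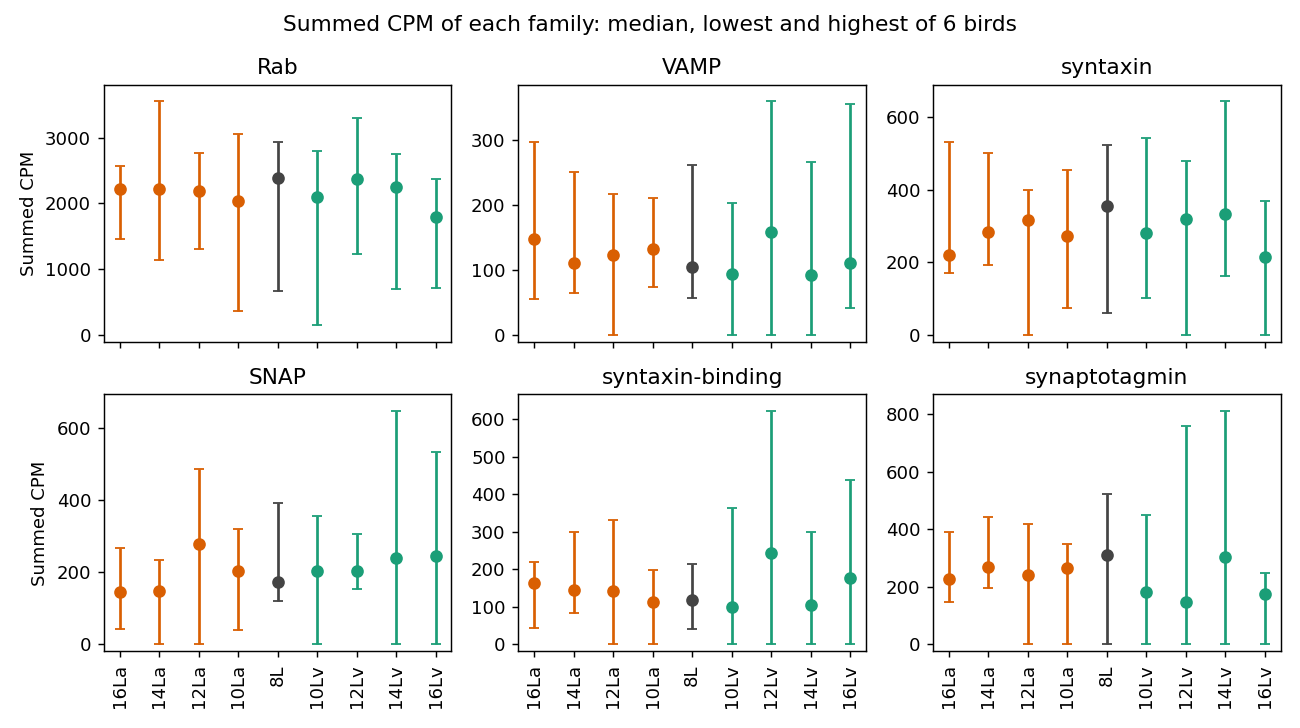
Summed CPM of each family by photoperiod: points are the median of 6 birds and bars run from the lowest to the highest bird. The bars of every family overlap between all 9 photoperiods, and the syntaxin-binding median is highest at 12Lv.

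Members are taken first from the Rab proteins of the early secretory pathway. RAB1A, which acts in transport from endoplasmic reticulum to Golgi, had 351 counts in 48 of 54 birds. Its lowest, median and highest values were 170, 257 and 474 CPM at 16La, 0, 320 and 443 CPM at 8L, and 0, 191 and 292 CPM at 16Lv. Its ranges overlapped between all of these groups, and its mean per photoperiod lay between 178 and 298 CPM. RAB2A, a Golgi Rab, had 170 counts in 43 birds, with 27.9, 174 and 223 CPM at 16La, 0, 108 and 282 CPM at 8L, and 0, 0 and 341 CPM at 16Lv. At 16Lv it was counted in 2 of 6 birds, so its highest value there is 1 bird. RAB6A, which works in traffic at the Golgi, had 132 counts in 37 birds and read 0, 70.1 and 167 CPM at 16La, 0, 83.3 and 393 CPM at 8L, and 0, 31.2 and 164 CPM at 16Lv. RAB18, a Rab of the endoplasmic reticulum and lipid droplets, had 112 counts in 40 birds and was at 48.6, 86.2 and 113 CPM at 16La, 0, 94.6 and 169 CPM at 8L, and 0, 79.8 and 267 CPM at 16Lv.

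Among the endosomal and recycling Rabs, RAB7A, which directs late endosomes to lysosomes, had 217 counts in 48 birds, with 89, 123 and 251 CPM at 16La, 60.9, 126 and 215 CPM at 8L, and 0, 64.96 and 195 CPM at 16Lv. Its highest mean, 211 ± 62.9 CPM, was at 12La and its lowest, 85.3 ± 88.1 CPM, at 16Lv (SD, n = 6 each), and the ranges of those groups overlapped. RAB11A, of the recycling endosome, had 158 counts in 43 birds and read 59.3, 131 and 266 CPM at 16La, 43.0, 137 and 193 CPM at 8L, and 0, 31.2 and 164 CPM at 16Lv. It was counted in all 6 birds at 16La and at 8L and in 3 of 6 at 16Lv. RAB14, which links Golgi and endosomes, had 119 counts in 42 birds, and RAB5C, of early endosomes, had 93 in 40. RAB5C varied least between birds at 16La, with 40.5, 52.2 and 59.3 CPM, and read 0, 73.5 and 131 CPM at 8L and 0, 40.96 and 352 CPM at 16Lv.

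Among members tied to regulated secretion, the Rab3 genes RAB3C and RAB3B and the granule Rab RAB26 were counted in 35 to 38 birds. RAB3C had 107 counts, with 20.2, 78.3 and 283 CPM at 16La, 0, 108 and 169 CPM at 8L, and 0, 93.2 and 187 CPM at 16Lv. RAB3B had 83 counts, with 0, 20.2 and 97.2 CPM at 16La, 0, 60.2 and 218 CPM at 8L, and 0, 108 and 187 CPM at 16Lv. Its median was thus lowest at 16La of these groups, yet each of them held a bird at 0. RAB26 had 93 counts, with 0, 50.4 and 146 CPM at 16La, 0, 71.8 and 201 CPM at 8L, and 0, 85.5 and 125 CPM at 16Lv. Close copies such as RAB3B and RAB3C may share reads, and whether counting used the strand is not stated in the labels.

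The fusion proteins themselves were sparse. VAMP3, a vesicle SNARE, had 85 counts in 38 birds, with 0, 64.5 and 237 CPM at 16La, 40.3, 73.5 and 175 CPM at 8L, and 0, 107 and 356 CPM at 16Lv. Its highest value at 16Lv, in replicate 1, rests on 1 count in the shallowest library. SYT11, a synaptotagmin that does not act as a calcium sensor, had 134 of its family's 347 counts and was counted in 41 birds. It read 0, 101.1 and 140 CPM at 16La, 0, 108 and 363 CPM at 8L, and 0, 85.5 and 176 CPM at 16Lv, again with overlapping ranges. The SNAREs of neuronal and endocrine exocytosis, named here for their role and after their values were seen, had 57 counts in 32 birds for SNAP25 and 49 in 26 for STX1A. The calcium sensor SYT1 had 15 counts in 10 birds. VAMP2, their usual vesicle partner, is not among the genes the rule gave, so the table has no entry under that symbol.

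**Figure D4:**
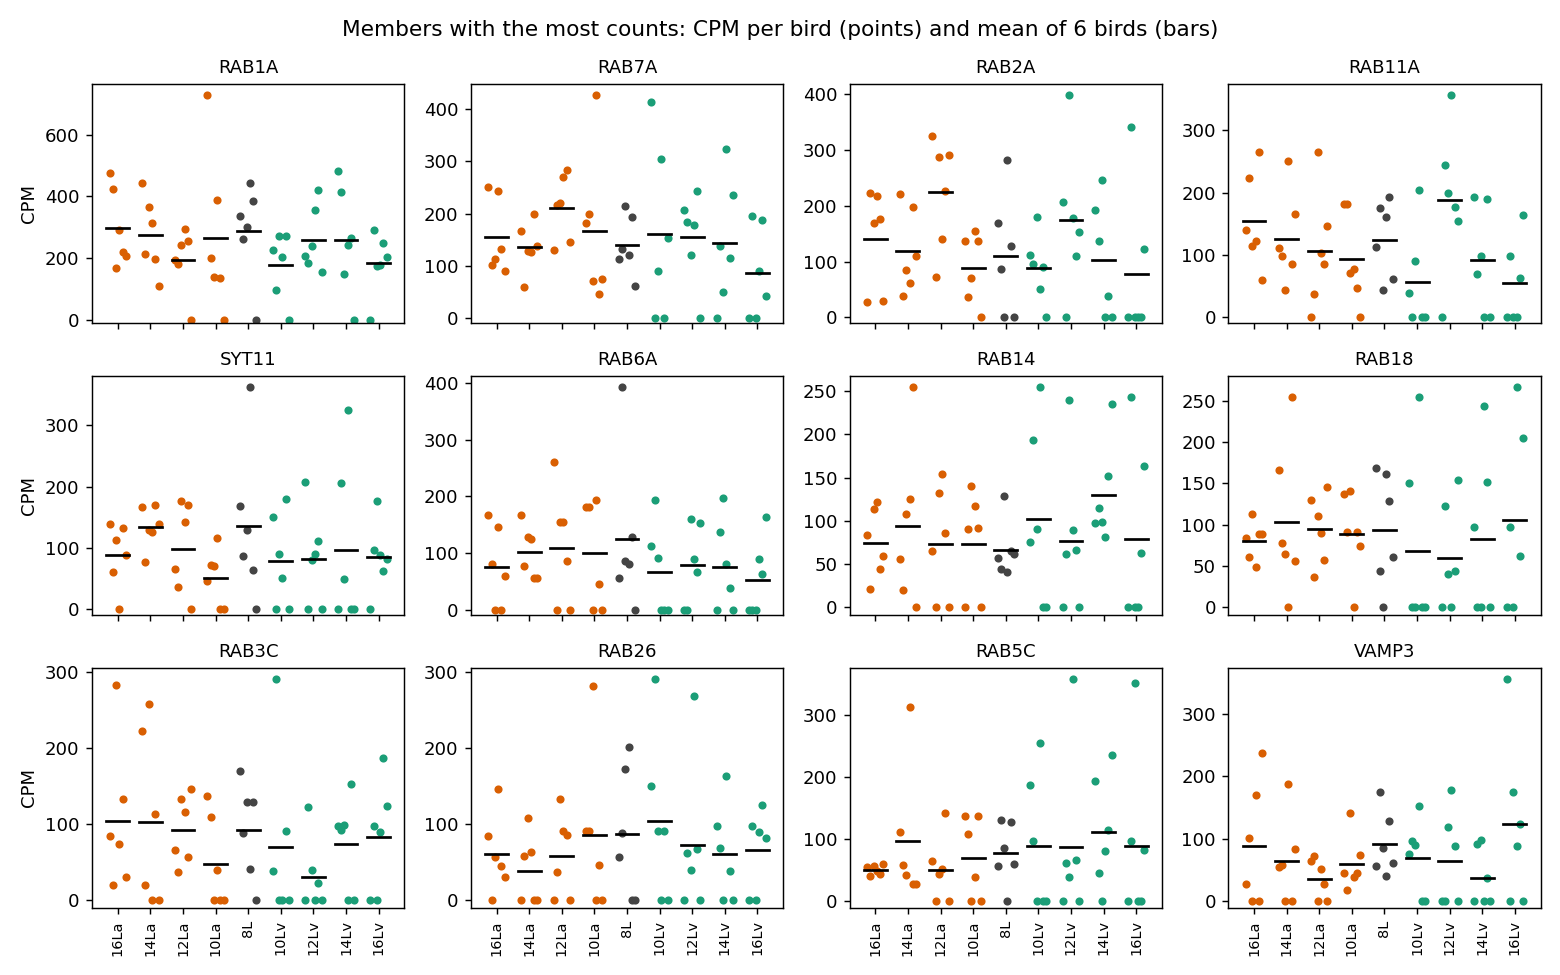
CPM of the 12 members with the most counts in every bird (points) by photoperiod, with the mean of 6 birds as a bar; each panel has its own scale. Birds at 0 stand beside birds at over 100 CPM within most groups, and the points of 16La, 8L and 16Lv overlap for each member shown.

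Photoperiods were compared with edgeR's quasi-likelihood test fitted to all 54 birds, with Benjamini-Hochberg adjustment over the 1460 genes that passed a filter for low counts. Of the 90 members, 13 passed that filter: 11 Rab genes, SYT11 and VAMP3. The other 77 were too sparse for a test in this fit. Across all 9 photoperiods, 0 of the 13 passed an adjusted p of 0.05, against 1.30% of all tested genes. At an unadjusted p below 0.05 it was also 0 of 13, against 5.48%. Here and below, 0 of 13 is near the share over all tested genes and does not show that the members' levels were equal. DESeq2 gave 0 calls among the 13 members in all 10 comparisons, and limma on the deposited CPM also 0. The share of all genes called by DESeq2 or limma is not given here. RAB2A, SYT11 and RAB11A had the smallest p-values of the members in edgeR, each with an adjusted p of 1.00. The labels do not name separate cages or batches, so p-values measure the spread between these birds.

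In short days against the long days at the start (8L against 16La), no tested member passed. The count was 0 of 13, against 0.479% of all genes tested, and 0 of 13 at an unadjusted p below 0.05, against 4.93%. SYT11 had the smallest p, with a mean of 135 ± 125 CPM at 8L and 89.2 ± 52.5 CPM at 16La (SD, n = 6 each) and a log2 fold change of 0.69 ± 0.62 (SE). RAB3B followed at 0.75 ± 0.80 and RAB26 at 0.56 ± 0.73 (adjusted p = 0.998 for all 3, edgeR). Single birds carried these values: without 8L replicate 4, SYT11 stood at 0.04 and RAB26 at 0.10, and without 8L replicate 2, RAB3B stood at 0.08. RAB1A, the best counted member, stood at -0.18 with a 95% interval of -1.04 to 0.67. The median log2 fold change was -0.00 over the 13 members and -0.04 over all genes tested. In the same fit, large changes of better counted genes were called. CGA, the glycoprotein hormone alpha subunit (12442 counts), fell by 2.29 on the log2 scale (adjusted p = 3.22e-05, edgeR). PRL, prolactin (36000 counts), fell by 2.65 (adjusted p = 1.46e-05, edgeR). FSHB, the follicle-stimulating hormone beta subunit (632 counts in 39 birds), fell by 6.43 (adjusted p = 0.00188, edgeR). Its estimate without the edgeR prior count was out of bounds, so it has no SE and the size of its fall depends on that prior. POMC (0.04) and TSHB (0.56) were not called (adjusted p = 0.998 for both, edgeR). RAB1A had 351 counts, so these calls do not show that a change of a member would have been called. For 12 of the 13 members the interval lay within -2 and 2 on the log2 scale, and for none of them within -1 and 1.

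On the return to long days (16Lv against 8L) again no tested member passed. Here the count was 0 of 13, against 0.205% of all genes, and 0 of 13 at an unadjusted p below 0.05, against 4.38%. RAB6A had a mean of 52.5 ± 66.5 CPM at 16Lv and 124 ± 138 CPM at 8L (SD, n = 6 each). Its fitted log2 fold change was -0.95 ± 0.79 (SE). Leaving out 8L replicate 2 gave -0.12, and leaving out 16Lv replicate 6 gave -1.88. SYT11 stood at -0.87 ± 0.74 and RAB1A at -0.59 ± 0.53 (adjusted p = 0.977 for all 3, edgeR), and SYT11 was -0.24 without 8L replicate 4. The members' median was -0.34 and that of all tested genes -0.23. The interval lay within -2 and 2 for 8 of the 13.

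Long days after the cycle were also set against long days before it (16Lv against 16La). No tested member passed: 0 of 13 against 0.0685% of all genes, and 0 of 13 at an unadjusted p below 0.05 against 5.75%. RAB11A averaged 53.9 ± 67.5 CPM at 16Lv and 154 ± 76.3 CPM at 16La (SD, n = 6 each). Its fitted log2 fold change was -1.09 ± 0.68 (SE, adjusted p = 0.889, edgeR). RAB1A stood at -0.77 ± 0.50 (adjusted p = 0.889) and RAB7A at -0.77 ± 0.64 (adjusted p = 0.923, edgeR). The median of all tested genes was itself -0.27, and that of the members -0.18. The interval lay within -2 and 2 for 8 of the 13 and within -1 and 1 for none.

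**Figure D5:**
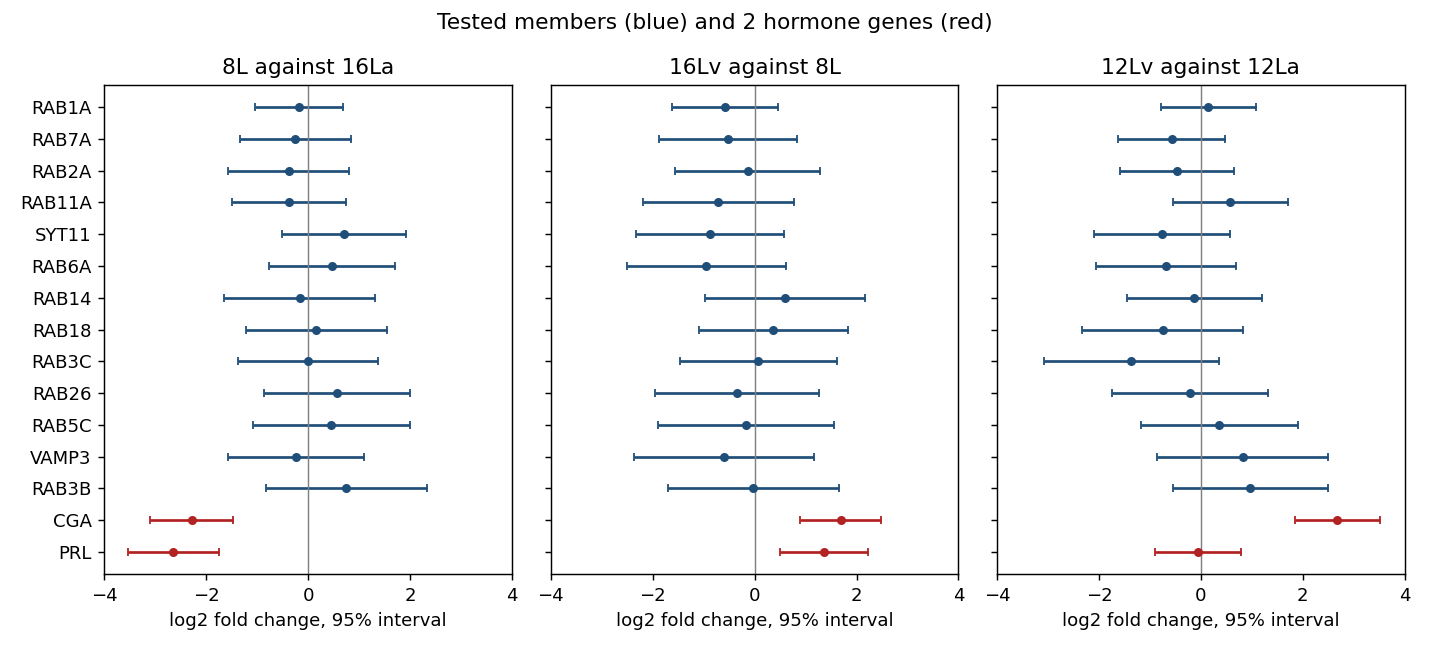
Log2 fold changes with 95% intervals of the 13 tested members (blue) and of CGA and PRL (red) for 8L against 16La, 16Lv against 8L and 12Lv against 12La. Each member's interval includes 0, while CGA lies away from 0 in all 3 panels. The PRL interval excludes 0 for 8L against 16La and 16Lv against 8L and includes it for 12Lv against 12La. For 16Lv against 8L PRL stood at 1.36 and was not called (adjusted p = 0.326, edgeR).

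No member passed the test for a linear trend over hours of light. For the slope over all 9 photoperiods 0 of 13 members passed, against 0.685% of all genes, and 0 of 13 at an unadjusted p below 0.05, against 6.44%. RAB26 had -0.08 ± 0.07, RAB7A -0.06 ± 0.05 and RAB3C 0.06 ± 0.07 (log2 per hour of light ± SE, adjusted p = 0.964 for all 3, edgeR). The slope of RAB1A was 0.00 with an interval of -0.09 to 0.09. The difference between the spring slope and the autumn slope gave 0 of 13 members, against 0% of all genes, and 0 of 13 at an unadjusted p below 0.05, against 5.62%. Its smallest p-values belonged to RAB7A at -0.10 ± 0.08, VAMP3 at -0.12 ± 0.10 and RAB11A at -0.10 ± 0.09 log2 per hour (adjusted p = 0.945, 0.947 and 0.958 in that order, edgeR).

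At equal day length, no tested member passed the test between spring-like and autumn-like birds. For 12Lv against 12La the count was 0 of 13, against 0.479% of all genes, and 0 of 13 at an unadjusted p below 0.05, against 5.07%. RAB3C averaged 30.8 ± 47.8 CPM at 12Lv and 92.0 ± 45.1 CPM at 12La (SD, n = 6 each). Its fitted log2 fold change was -1.36 ± 0.87 (SE). RAB3B, its close relative, averaged 124 ± 98.2 CPM at 12Lv and 34.4 ± 40.5 CPM at 12La, with a fitted log2 fold change of 0.97 ± 0.77. Both 95% intervals included 0, with -3.08 to 0.35 for RAB3C and -0.55 to 2.49 for RAB3B (adjusted p = 0.985 for both, edgeR). At 12Lv RAB3C rested on 4 counts in 3 of 6 birds, and 12La replicate 4 held 7 of the 11 RAB3B counts at 12La. As single birds were left out, RAB3C ran from -1.96 to -1.05 and RAB3B from 0.73 to 1.59. SYT11 stood at -0.76 ± 0.68. The interval lay within -2 and 2 for 7 of the 13 members and within -1 and 1 for none. In this fit CGA was higher at 12Lv by 2.68 on the log2 scale (adjusted p = 6.01e-07, edgeR).

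No member passed the test in the 14 h and 10 h pairs either. For 14Lv against 14La 0 of 13 members passed, against 0.0685% of all genes, and 0 of 13 at an unadjusted p below 0.05, against 4.38%. RAB18 stood at -0.81 ± 0.71, SYT11 at -0.51 ± 0.61 and RAB3C at -0.49 ± 0.67 (log2 fold change ± SE, adjusted p = 0.985 for all 3, edgeR). For 10Lv against 10La the count was 0 of 13 against 0% of all genes, and 0 of 13 at an unadjusted p below 0.05 against 2.74%. RAB6A stood at -0.90 ± 0.78, RAB1A at -0.62 ± 0.53 and RAB3B at 0.86 ± 0.89 (adjusted p = 0.997 for all 3, edgeR). The interval lay within -2 and 2 for 11 of the 13 members at 14 h and for 8 of the 13 at 10 h. In both pairs it lay within -1 and 1 for none.

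The mean of the spring photoperiods against that of the autumn photoperiods gave narrower intervals than the other 6 contrasts of levels. No tested member passed: 0 of 13 against 0.137% of all genes, and 0 of 13 at an unadjusted p below 0.05 against 9.52%. RAB6A stood at -0.58 ± 0.37 (adjusted p = 0.627), RAB7A at -0.42 ± 0.29 (adjusted p = 0.678) and RAB1A at -0.35 ± 0.24 (log2 fold change ± SE, adjusted p = 0.681, edgeR). The median was -0.24 over the members and -0.19 over all tested genes, and depth differed between the arms as given above. All 13 intervals lay within -2 and 2, and 9 of them within -1 and 1.

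Known partners of the members were taken from 4 lists, and no tested gene of them passed an adjusted p of 0.05. Of the SNARE disassembly, priming and clamping genes, 14 of 17 are in the table and 1 was tested, CADPS, which primes dense-core granules. CADPS had 80 counts and stood at -1.90 ± 1.06 for 10Lv against 10La (log2 fold change ± SE, adjusted p = 0.997, edgeR). Its unadjusted p there was 0.0461 (edgeR), and 2.74% of all tested genes had one below 0.05. The next by counts were NAPG with 65, CPLX1 (complexin, a clamp on SNAREs) with 64 and UNC13B (a Munc13 priming factor) with 49. Of the Rab regulators and effectors, 23 of 27 are in the table and 1 was tested, GDI2, which extracts Rabs from membranes and had 134 counts. RAB3GAP1 and SYTL3 had 63 counts each and RABIF had 52. The 9 exocyst subunits, which tether vesicles, were all in the table and none was tested, with EXOC1 (40 counts), EXOC5 (39), EXOC3 (38) and EXOC4 (38) leading.

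Granule cargo ranged from well counted to sparse. Of 11 listed granule genes 9 are in the table and 6 were tested: CHGA, CHGB, CPE, PAM, SCG2 and SCG3. Chromogranin A (CHGA) had 17195 counts, chromogranin B (CHGB) 2245, secretogranin SCG3 615 and carboxypeptidase CPE 605, while the 3 untested genes of the list in the table had 35 to 55 counts. No tested gene of the 4 lists passed an adjusted p of 0.05 in any of the 10 comparisons (edgeR), against 0% to 1.30% of all tested genes. For spring against autumn, CHGB stood at -0.68 (95% interval -1.18 to -0.18, unadjusted p = 0.00854, adjusted p = 0.337, edgeR). SCG3 stood at -0.41 (-0.80 to -0.006, unadjusted p = 0.0442, adjusted p = 0.502, edgeR). There 9.52% of all tested genes had an unadjusted p below 0.05. The median log2 fold change was -0.29 over the 6 granule genes and -0.19 over all tested genes.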

How the data were processed

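Groups came from the treatment label of each bird; replicate numbers name birds in deposition order and pair none. The deposited table holds estimated counts per transcript. Tools named in the submitters' processing notes are minimap2 2.17, Salmon 0.14.2 and edgeR 3.24.3, with no roles, and a genome build was not stated there. The authors also deposited a CPM table whose columns sum to between 327092 and 1790364, so it was treated as a normalised signal. All 235 member transcripts matched the Coturnix japonica 2.1 gene table by accession with equal symbols.

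The largest transcript count per gene and bird was rounded and tested with edgeR 4.0.16 (quasi-likelihood, robust, TMM, filterByExpr with a minimum count of 3 and a minimum total of 15, 1 mean per photoperiod, Benjamini-Hochberg threshold 0.05). A log2 fold change has the edgeR prior count, and its 95% interval is centred on that value. It also uses the TMM factors, which ran from 0.589 to 2.16, while CPM values use each bird's unscaled total. The fold change is therefore not the ratio of the CPM means given beside it. The SE, which sets the width of the interval, does not use the prior. Depth was 2812 to 77709 counts per bird.

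Named genes are the 12 members with the most counts, the 3 tested members with the smallest p in each comparison, any member past the threshold (there was none), and the 4 genes with the most counts of each other list; others are said to be named outside this rule. Members and lists were chosen with earlier results of these data known. Alternatives were DESeq2 1.42.0 with poscounts size factors, limma 3.58.1 on log2(deposited CPM + 1), other filters and counts, and leaving out birds. The statistics were tested on simulated data. Python 3.11.15 and R 4.3.3 were used.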

Additional observations from a re-analysis of the deposited data

Results flagged for a closer look

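Within groups of 6 birds, 12 of 117 sets of values had 1 bird that stood apart from its nearest neighbour by more than Dixon's 95% limit on the gap over the whole range. Chance flags about 1 in 20 such sets where values are normally distributed. Here 108 of the sets are CPM of single members with low counts and many zeros, so that rate need not hold. In 8L replicate 6, the member share was 0.110%, against 0.323% in the nearest bird, and this is the highest-numbered bird at 8L. For RAB2A, 16Lv replicate 2 had 341 CPM, and the nearest bird 123 CPM. For RAB6A, 8L replicate 2 had 393 CPM, and the nearest bird 128 CPM. RAB14 had 129 CPM in 8L replicate 3 and 240 CPM in 12Lv replicate 3. RAB3C had 290 CPM in 10Lv replicate 2 and 122.5 CPM in 12Lv replicate 2. RAB26 had 281 CPM in 10La replicate 3 and 268 CPM in 12Lv replicate 4. RAB5C had 313 CPM in 14La replicate 4, 357 CPM in 12Lv replicate 4 and 352 CPM in 16Lv replicate 3. Each of the gene values rests on 9 counts or fewer in that bird.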

How the results depend on the processing

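No member was called in any comparison under the 12 alternatives or the 54 fits that each left out 1 bird. The number of members tested in a comparison ran from 1, where 2 groups were fitted alone, to 90 with no filter, and the lowest adjusted p was 0.0708 among the alternatives and 0.449 among the fits without 1 bird. At an unadjusted p below 0.05, DESeq2 gave 0 of 130 member tests, limma 12 of 130 and no filter on low counts 53 of 900. The shares over all genes under the alternatives are not given here, so these counts have no background to be read against. A minimum count of 10 on the largest transcript count left no member to test, and on summed transcript counts it left 6. Leaving out 1 bird moved 22 of the 30 named member results by over 1.5 times in at least 1 fit. The 30 include the adjusted p of RAB2A, SYT11 and RAB11A across all photoperiods, which has no sign and was not moved that far. Of 1926 refits of named members, these included, 3 turned sign, none of them past a threshold. Many refits left out a bird of neither compared group, so this count does not measure how stable the signs are. RAB26 for 8L against 16La was -0.52 with limma on the deposited CPM. RAB3B for 10Lv against 10La ran from -0.20 to 1.37 as single birds were left out, and RAB3C for 14Lv against 14La from -0.76 to 0.33. Without the 2 genes with the most counts, the member share was 0.443% in 16La birds, 0.480% in 14La birds, 0.473% in 12La birds, 0.422% in 10La birds, 0.464% in 8L birds, 0.520% in 12Lv birds and 0.411% in 16Lv birds. Those 2 genes took a mean of 33.6% of the library counts (range 19.2% to 68.0%). Of 108 recomputed shares, all but these 7 moved by less than 1 SD. Leaving out the highest-numbered bird of each photoperiod was chosen after seeing the data. No paired analysis was possible because the labels give no replicate numbers shared between photoperiods. The 77 members under the count filter had no test in the main fit.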

Other observations

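Both genes here were picked after their values were seen, and neither passed the filter for low counts. RAB23, a Rab known from ciliary signalling in mouse, had 2 counts in 2 of 24 spring birds, 2 counts in 1 of 6 birds at 8L and 23 counts in 13 of 24 autumn birds. Spring libraries were shallower, with 392214 counts in all against 764403 in autumn. Tested with no filter on low counts, spring against autumn gave an adjusted p of 0.0708 (edgeR), the lowest of any member in any alternative. STX2, a plasma membrane syntaxin, had no count in the 6 birds at 16Lv, a limit of 37.2 CPM over the group's libraries (3 counts). It had 11 counts in 5 of 6 birds at 16La and 11 counts in 3 of 6 birds at 14Lv. Its pooled level was below that limit at 14La (9.83 CPM), 8L (24.85 CPM) and 10Lv (23.45 CPM), so 16Lv does not stand apart from these. The 16Lv libraries held 80744 counts and those of 16La 200383. Other members also had no count at 16Lv. For STX2 on summed transcript counts, 16Lv against 16La gave an adjusted p of 0.362 (edgeR).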
